A study of Columba livia with 4 samples.

Results

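Solitary acetylated peaks with 1 SOX10 site were described in cultured pigeon (Columba livia) melanocytes, the cells that make pigment. Peaks of acetylated lysine 27 of histone H3 (H3K27ac) were joined into domains wherever the gap between neighbours on a scaffold was at most 5 kb. The members were chosen by measured positions: a domain had to consist of a single H3K27ac peak and to contain exactly 1 SOX10 summit, the base at which the SOX10 signal of a peak was highest. Of 17608 H3K27ac domains, 10175 consisted of a single peak, and 955 of these (9.39%) were members. The other single-peak domains comprised 9143 with no summit, used here for comparison, and 77 with 2 or more.

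SOX10 is a transcription factor of the SOXE group that, in mouse and human, is needed for neural crest derivatives. In their melanocytes it acts upstream of and together with MITF on genes of pigment synthesis. H3K27ac is deposited by the acetyltransferases p300 and CBP and is found at active promoters and enhancers. Trimethylation of the same residue (H3K27me3) is written by Polycomb repressive complex 2 and marks silenced developmental genes. The same lysine cannot carry both groups at once.

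The study immunoprecipitated chromatin of wild-type primary melanocytes for SOX10, H3K27ac and H3K27me3, with 1 library for each and 1 input library of chromatin that was not immunoprecipitated. All 4 samples were grown alike, in a serum-containing medium with endothelin-3 (10 ng/mL), cholera toxin (40 ng/mL) and the phorbol ester TPA (85 nM), without a contrasting treatment or genotype. The labels do not say how many birds or cultures stood behind the cells, and no input list was used here. The lists name no genes, so the labelled cell type could not be checked against markers.

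The 3 lists held 6579 SOX10, 34223 H3K27ac and 36792 H3K27me3 peaks on scaffolds of the AKCR02 series, whose genome build the labels leave unnamed. Positions are counted from 1. With 1 library per target no replicate error exists and no test was made. Each median has an exact order-statistic 95% interval and each share an exact binomial 95% interval. The interval of a ratio of medians divides the ends of their intervals crosswise, so it is generally wider than a 95% interval. That of a difference in shares combines the Wilson score 95% intervals of both shares. Such intervals reflect counting alone, and peaks close together on a scaffold may share their surroundings. Overlap of separate intervals does not show that groups are equal.

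The members together covered 1910 kb, which was 4.45% of all H3K27ac bases, and their summits were 14.5% of all SOX10 summits and 23.9% of the 4001 summits inside an H3K27ac domain. They lay on 199 scaffolds. Of the 955, 853 lay on scaffolds whose span, the highest peak end in any list, was at least 1 Mb. On the 49 scaffolds with 50 or more single-peak domains, the share of single-peak domains that were members ran from 2.94% to 14.1% with a median of 9.75%. The solitary sites were thus spread over the assembly rather than gathered on a few scaffolds. The remaining 102 lay on 86 shorter scaffolds, and 42 of those 102 had no other H3K27ac domain on the scaffold, where being solitary says little.

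Solitary peaks with a summit were wide and strongly acetylated among single-peak domains. Their median width was 1564 bp (1493 to 1650 bp), with an interquartile range of 1022.5 to 2611.5 bp and extremes of 254 and 10101 bp. Single-peak domains without a summit had a median of 601 bp (589 to 615 bp), so the ratio of the medians was 2.60. A wider peak offers more room for a summit, and width is therefore tied to the way the members were chosen.

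The share of single-peak domains with exactly 1 summit was 1.22% under 500 bp (0.901 to 1.63%), 6.53% at 500 bp to under 1 kb (5.64 to 7.51%), 16.3% at 1 kb to under 2 kb (14.9 to 17.9%) and 28.3% at 2 kb and over (25.8 to 30.9%). It rose from each width class to the next, without overlap of the intervals. Per 100 kb of acetylated sequence the 4 classes held 3.49, 9.16, 11.6 and 8.69 members. The density was thus lowest in the narrowest class, and above 500 bp it did not keep rising with width. In the widest class 59 further domains held several summits and were not counted as members.

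**Figure D1:**
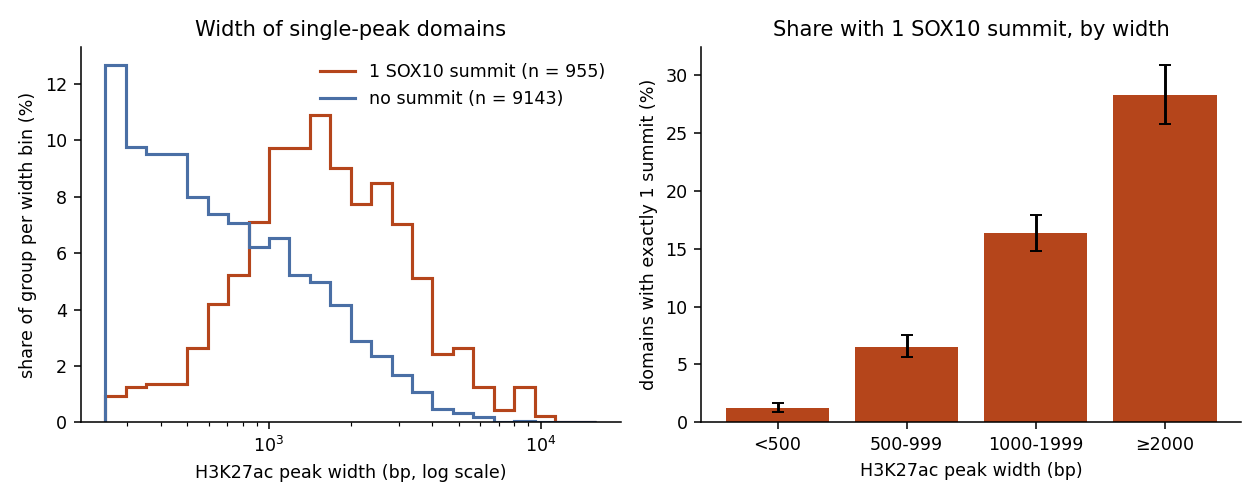
Left, the share of each group (%) per width bin against H3K27ac peak width (bp, log scale) for the 955 single-peak domains with 1 SOX10 summit and the 9143 with none. Right, the share of single-peak domains with exactly 1 summit in 4 width classes, with exact binomial 95% intervals as error bars, rising from 1.22% to 28.3%.

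The authors' H3K27ac fold of the peak over local background had a median of 5.69 (5.52 to 5.88) in members and 3.72 (3.69 to 3.77) in single-peak domains without a summit. Members had the higher median fold in every width class. Under 500 bp the medians were 4.12 (3.41 to 4.36) and 3.29 (3.26 to 3.32), and at 500 bp to under 1 kb they were 4.59 (4.19 to 5.14) and 3.67 (3.61 to 3.75). At 1 kb to under 2 kb they were 5.13 (4.91 to 5.61) and 4.57 (4.48 to 4.68), and at 2 kb and over 6.45 (6.26 to 6.71) and 5.53 (5.38 to 5.70). The intervals did not overlap in any class, so the gap in acetylation was also present within width classes. Members still had the larger median width in every class. It was 370 against 341 bp in the narrowest and 2955 against 2676.5 bp in the widest, so widths were matched only coarsely. Within the widest class, 35.5% (31.7 to 39.4%) of domains above the class median fold were members, against 21.1% (17.9 to 24.5%) of those up to it.

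Among the 955 members, width and H3K27ac fold were weakly related (Spearman's rho = 0.29), less closely than among the 9143 domains without a summit (rho = 0.48). Both values of a pair come from the same peak and library, and rho is a description across regions.

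The SOX10 summit sat near the middle of the solitary peak. It lay in the central 50% of the peak in 726 of 955 members (76.0%, 73.2 to 78.7%) and in the central 25% in 418 (43.8%, 40.6 to 47.0%). A summit placed without regard to the peak's shape would fall in those parts in 50% and 25% of cases by construction. The median offset from the centre was 208.5 bp (190 to 223 bp), or 29.2% of the distance from centre to edge. Summits lay to either side alike, with 471 of 955 (49.3%) on the side of higher coordinates.

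The central position depended on width. Under 500 bp, 23 of 47 summits (48.9%, 34.1 to 63.9%) lay in the central 50% of the peak, the value that geometry alone gives. At 500 bp to under 1 kb the share was 62.3% (54.8 to 69.3%), at 1 kb to under 2 kb 78.7% (74.2 to 82.8%) and at 2 kb and over 84.0% (79.7 to 87.6%). The wider the solitary peak, the larger the share of summits near its middle, although the offset in bases also grew. Its median was 93 bp (65 to 123 bp) in the narrowest class and 408 bp (334 to 461 bp) in the widest. The SOX10 peaks themselves had a median width of 198 bp, and under 500 bp 23 of 47 of them ran past an edge of the acetylated peak, against 4 of 349 in the widest class.

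**Figure D2:**
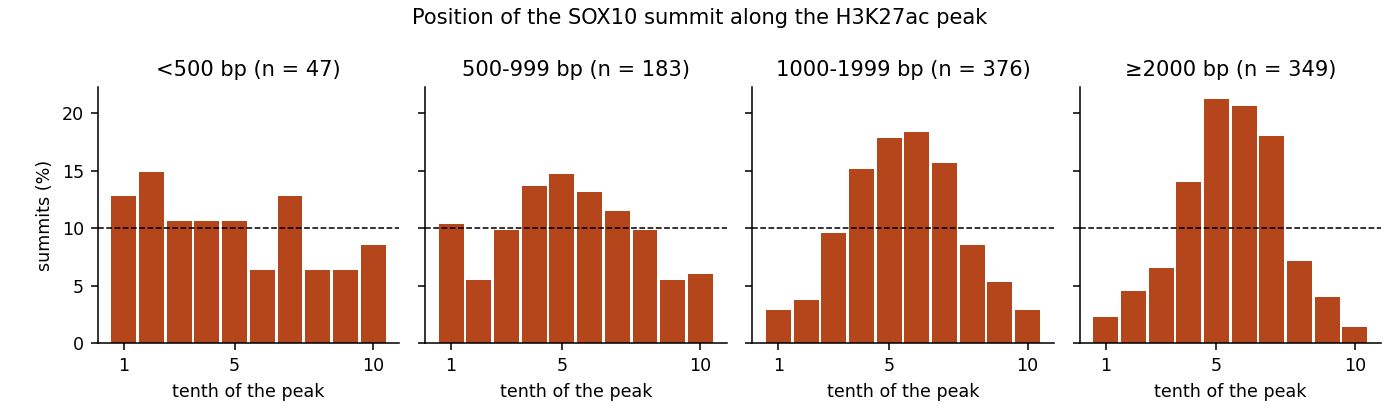
Share of SOX10 summits (%) in each of 10 equal parts of the H3K27ac peak, from its lower to its higher coordinate, for solitary peaks in 4 width classes. The dashed line marks the 10% that an even spread would give; the middle parts rise above it with width, to 21.2% in the fifth part at 2 kb and over.

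Multi-peak domains with a single summit gave a nearby comparison. Of 1555 such domains, 1180 (75.9%) had the summit inside a peak and the rest had it in a gap between peaks. In those 1180 peaks, which had a median width of 2338 bp, 73.7% (71.1 to 76.2%) of summits lay in the central 50%, close to the 76.0% of solitary peaks. In the widest class the shares were 76.1% (72.7 to 79.2%) in multi-peak domains and 84.0% (79.7 to 87.6%) in solitary peaks, with intervals that did not overlap. Below 2 kb the intervals of solitary and grouped peaks overlapped in each width class.

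At the edges, 84 members (8.80%, 7.08 to 10.8%) had the summit within 100 bp of an end of the peak. These peaks were narrow, with a median of 651.5 bp, and had a median H3K27ac fold of 4.46 (4.12 to 5.18). Such members stand nearest to the rule, since a shift of 100 bp would put their summit outside. On the other side of that line, 97 of the 9143 domains without a summit shared bases with a SOX10 peak whose summit lay beyond the edge. Counting these shared bases in place of summits gave 1051 members.

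The strength of SOX10 at solitary peaks was close to that in other acetylated domains. The authors' SOX10 fold at the summit had a median of 3.31 (3.23 to 3.41) in members, 3.29 (3.26 to 3.34) at the 2879 summits in multi-peak domains and 3.42 (3.38 to 3.46) at the 2578 summits outside any H3K27ac domain. Fragments at the summit, recovered from fold and p as described in the processing section, had medians of 33 (32 to 34), 34 (34 to 35) and 31 (30 to 31). The intervals of members and multi-peak domains overlapped for fold and touched for fragments. At members of under 500 bp the median fold was 3.81 (2.88 to 4.28) and at 2 kb and over 3.09 (3.01 to 3.26), with overlapping intervals, while fragments were 26 (24 to 31) and 36 (35 to 37). Members ranged from 14 to 245 fragments, over a local background with a median of 9.15.

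Where the local background was lowest, at 3.77 to 6.93 fragments, the median fold was 4.05 (3.86 to 4.22) for 219 members, 3.85 (3.78 to 3.93) for 569 summits in multi-peak domains and 3.78 (3.72 to 3.85) for 822 outside. In the second of 4 background classes members and multi-peak domains were near each other, at 3.41 (3.26 to 3.51) and 3.38 (3.34 to 3.45). In the third their order was reversed, at 3.08 (3.01 to 3.19) and 3.20 (3.16 to 3.28). It was also reversed in the highest, at 2.71 (2.60 to 2.80) and 2.83 (2.77 to 2.88). No steady difference in SOX10 strength between solitary and grouped sites was seen over the classes. Across the 955 members SOX10 fold was almost unrelated to H3K27ac fold (rho = 0.11), while it fell with background (rho = −0.54), which enters the fold itself.

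**Figure D3:**
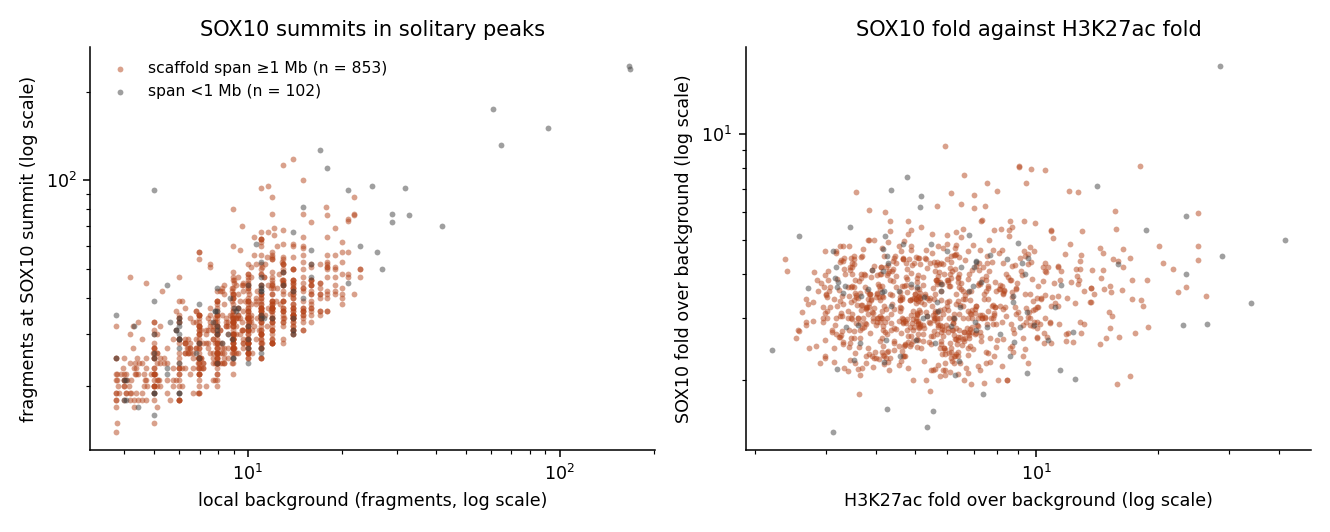
Left, fragments at the SOX10 summit against local background (both in fragments, log scales) for the 955 members, coloured by scaffold span. Right, SOX10 fold against H3K27ac fold of the same peaks (log scales). The 5 members with a background above 50 fragments lie at the upper right of the left panel, all on scaffolds under 1 Mb.

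In 5 members the local background exceeded 50 fragments, and their SOX10 folds were 1.42 to 2.83 with 132 to 245 fragments at the summit. All 5 lay on scaffolds with a span of at most 10.2 kb that held no other H3K27ac domain.

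The 10 members of highest SOX10 fold ran from 7.26 to 15.7, and none touched H3K27me3. Over all members the share was 5.13%, so the lack of contact in so few says little. The first, at 1 to 1240 of AKCR02003322.1, had no other H3K27ac domain, SOX10 summit or H3K27me3 peak on its scaffold. Its own end set the span there and the scaffold's length is not given, so its neighbourhood is unknown. This member held 93 fragments over a background of 4.99 and an H3K27ac fold of 28.6. The strongest with neighbours was at 436411 to 437648 of AKCR02000035.1, where a SOX10 fold of 9.26 (47 fragments over 4.18) lay 71.5 bp from the centre of a peak of H3K27ac fold 5.92. Its next acetylated domain was 16.0 kb away and the next SOX10 summit 70.1 kb.

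A pair of strong members shared the scaffold AKCR02000011.1. The peak at 589360 to 590364, with a SOX10 fold of 8.16, had 113 fragments and an H3K27ac fold of 18.1. The peak at 17917475 to 17920064 had a fold of 8.06, and its summit lay 138 bp from the edge. The first had its summit 220 bp from the centre, and the second 1156.5 bp, so a strong summit was not always a central one.

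Other strong members included the peak at 2303368 to 2304997 of AKCR02000066.1, which had the most fragments of the 10, 118 over 14.0, and a fold of 7.95. The peak at 5813779 to 5815674 of AKCR02000006.1 had a fold of 8.11 and no further SOX10 summit for 170 kb. The remaining 4, on AKCR02000009.1, AKCR02000110.1, AKCR02000249.1 and AKCR02000005.1, had folds of 7.26 to 7.93. Apart from the peak on AKCR02003322.1, the 10 lay 5.22 to 56.2 kb from the next acetylated domain.

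The 5 widest members measured 9172 to 10101 bp. The widest, at 37146 to 47246 of AKCR02000225.1, held a summit of fold 2.57 at 509 bp from its centre. A pair of them were neighbours on AKCR02000043.1, at 4505116 to 4514380 and 4523422 to 4532761, separated by 9041 bp, with SOX10 folds of 3.91 and 2.86. The other widest members were on AKCR02000025.1 and AKCR02000010.1. None of the 5 touched H3K27me3, against 5.13% of all members, which for so few says little. The 3 narrowest, of 254, 254 and 257 bp, lay on AKCR02000027.1, AKCR02000145.1 and AKCR02000178.1 with SOX10 folds of 3.51, 4.65 and 3.81. The last of these was 89.1% covered by H3K27me3.

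The distance to other acetylated chromatin was similar at the median for members and for domains without a summit. The median distance to the next H3K27ac domain was 15.4 kb (14.1 to 16.4 kb) for the 912 members with another domain on the scaffold. It was 14.7 kb (14.4 to 15.1 kb) for 8561 domains without a summit, a ratio of 1.05 (0.931 to 1.14). All distances exceed 5 kb by the rule.

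Wide single-peak domains lay closer to their neighbours, and within width classes the members stood somewhat further apart. At 1 kb to under 2 kb the medians were 17.0 kb (15.4 to 20.3 kb) for members and 14.0 kb (13.2 to 15.0 kb) for domains without a summit, and 18.1% (14.3 to 22.4%) against 11.1% (9.72 to 12.6%) lay more than 50 kb from the next domain. The intervals did not overlap for either measure in that class. Members also had the larger median in the other 3 classes, at 19.1 against 15.9 kb under 500 bp, 17.6 against 15.1 kb at 500 bp to under 1 kb, and 11.7 against 11.3 kb at 2 kb and over. The intervals overlapped in those 3 classes and so did not set the groups apart there.

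The next acetylated domain was a single peak in 57.6% (54.3 to 60.8%) of members and 58.2% (57.1 to 59.2%) of domains without a summit. It contained a SOX10 summit in 20.5% (17.9 to 23.3%) and 18.0% (17.2 to 18.8%), and for both measures the intervals overlapped. When the neighbour was a multi-peak domain, it contained a summit in 32.6% (27.9 to 37.5%) and 28.7% (27.3 to 30.3%). Of the 885 members with a domain on both sides, 562 (63.5%, 60.2 to 66.7%) stood between domains without SOX10, against 68.1% (67.1 to 69.1%) of 8160 domains without a summit. Those intervals did not overlap, and members thus had SOX10 in a neighbour on at least 1 side somewhat more often. The shares were not matched for width or scaffold span.

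Among those 885, 145 (16.4%) had more than 50 kb to both neighbours. Of all 955 members, 15.7% (13.5 to 18.2%) lay more than 50 kb from the next domain. The share was 13.6% (12.9 to 14.3%) of all domains without a summit, with overlapping intervals. The 5 most isolated of the 885 had 257 to 438 kb of scaffold without H3K27ac on their nearer side. The first was at 665010 to 667554 of AKCR02000041.1, with a SOX10 fold of 3.21, an H3K27ac fold of 4.62 and 438 kb to the next domain. The peak at 7941710 to 7942599 of AKCR02000019.1 was 278 kb from other acetylation and had its summit 13 bp inside the edge, with another SOX10 summit 12.9 kb away. The others were at 30112143 to 30113604 of AKCR02000006.1, 2438062 to 2438924 of AKCR02000023.1 and 50862357 to 50863710 of AKCR02000001.1. H3K27ac folds of these 5, at 3.06 to 4.62, all lay under the members' median of 5.69.

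The next SOX10 site was at a similar median distance from members and from domains without a summit. Measured from the peak edge, the next SOX10 summit outside it was at a median of 49.1 kb (44.4 to 55.5 kb) for 904 members and 48.9 kb (47.1 to 50.8 kb) for 8353 domains without a summit, a ratio of 1.00 (0.875 to 1.18). From a member's own summit to the next summit the median was 50.2 kb (44.9 to 56.5 kb), as for summits outside acetylated domains at 51.1 kb (47.9 to 54.8 kb). Summits in multi-peak domains were nearer to their next, at 13.9 kb (12.8 to 15.0 kb), where several can share 1 domain. From the edge of multi-peak domains with exactly 1 summit, the next summit lay at a median of 37.3 kb (34.6 to 40.6 kb). That interval did not overlap the 44.4 to 55.5 kb of members, but widths were not matched. The next summit of a member lay in a multi-peak domain in 37.9%, outside any domain in 42.5% and in another member in 18.0% of cases.

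Just outside the peak the rule itself shapes the SOX10 count, since a member's own summit lies inside and is not counted, while any summit close to a domain without one must lie outside. The values there are a description only. A further summit lay within 1 kb of the edge in 11 members (1.15%, 0.576 to 2.05%) and in 405 domains without a summit (4.43%, 4.02 to 4.87%), against 3.23% of all H3K27ac domains. Under 500 bp the order was the other way, at 5 of 47 members (10.6%, 3.55 to 23.1%) against 6.12% (5.38 to 6.93%), with overlapping intervals. In the first kb of flank this came to 6.02 summits per Mb around members and 23.6 around domains without a summit, falling to 3.84 and 3.09 in the second kb. The 3 members with the nearest further summit had it 70, 125 and 150 bp beyond the edge, on AKCR02000002.1, AKCR02000034.1 and AKCR02000061.1.

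**Figure D4:**
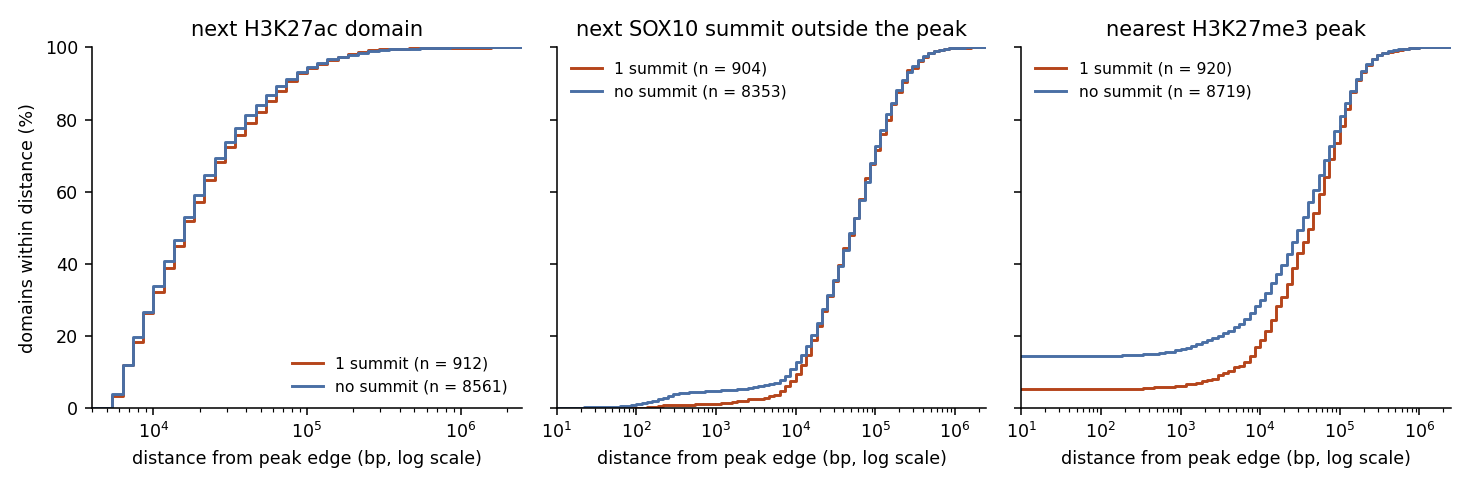
Share of domains (%) within a given distance of the peak edge (bp, log scale) from the next H3K27ac domain, the next SOX10 summit outside the peak and the nearest H3K27me3 peak, for single-peak domains with 1 summit and with none. The curves for the first 2 distances nearly coincide, apart from short distances to the next SOX10 summit. Among domains with a further summit on the scaffold, 1.22% of 904 members and 4.85% of 8353 domains without a summit had it within 1 kb. The H3K27me3 curves start at the share that touches, 5.33% and 14.4% of domains with H3K27me3 on the scaffold.

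H3K27me3, which played no part in the choice of members, was less frequent at and around them. An H3K27me3 peak shared at least 1 base with 49 members (5.13%, 3.82 to 6.73%), against 13.7% (13.0 to 14.5%) of single-peak domains without a summit and 15.6% of all H3K27ac domains. Touching or within 10 kb lay H3K27me3 for 174 members (18.2%, 15.8 to 20.8%), against 28.7% (27.8 to 29.6%) and, over all domains, 28.6%. The intervals of members and of domains without a summit did not overlap for either distance. The values over all domains count whole merged spans, so in multi-peak domains H3K27me3 in a gap between peaks also counts as contact. Multi-peak domains were also wider, with a median of 4939 bp, so the values over all domains are not like-for-like with those of members.

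The gap lay mostly in contact itself. Without contact but within 10 kb lay H3K27me3 for 13.1% (11.0 to 15.4%) of members and 15.0% (14.2 to 15.7%) of domains without a summit, with overlapping intervals. With contact counted as 0, the median distance to H3K27me3 was 40.3 kb (34.7 to 45.6 kb) for the 920 members with the mark on their scaffold and 30.0 kb (28.4 to 31.4 kb) for 8719 domains without a summit. Over all widths members were thus the further from the mark at the median, but not steadily within width classes. There the medians for members and domains without a summit were 13.2 and 20.3 kb under 500 bp. At 500 bp to under 1 kb they were 30.2 and 29.9 kb. At 1 kb to under 2 kb they were 37.7 and 39.7 kb, and at 2 kb and over 51.2 and 49.2 kb. The intervals overlapped in every class. Without matching for width or scaffold span, the next acetylated domain of members also touched H3K27me3 less often. The shares in contact with H3K27me3 were 8.44% (6.72 to 10.4%) against 13.0% (12.2 to 13.7%). Of the peaks that held the summit of a multi-peak domain, 8.14% (6.64 to 9.84%) touched it, an interval that just overlapped that of members.

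Much of this gap went with width. Under 500 bp the shares in contact were 19.1% (9.15 to 33.3%) of members and 20.8% (19.6 to 22.2%) of domains without a summit. At 500 bp to under 1 kb they were 6.56% (3.43 to 11.2%) and 11.2% (10.0 to 12.5%), at 1 kb to under 2 kb 3.19% (1.66 to 5.51%) and 6.34% (5.28 to 7.52%), and at 2 kb and over 4.58% (2.64 to 7.34%) and 6.30% (4.74 to 8.18%). Members had the lower share in all 4 classes, but the intervals overlapped in each. Within 10 kb or in contact the pattern was alike, from 36.2% (22.7 to 51.5%) against 36.8% (35.3 to 38.4%) in the narrowest class to 12.9% (9.56 to 16.9%) against 17.1% (14.6 to 19.8%) in the widest. The domains without a summit were then weighted to the members' width classes. The difference of −8.61 percentage points in contact shrank to −2.84, and that of −10.5 points within 10 kb to −2.94. Among peaks of 1 kb and over, a class chosen after seeing the data, the difference in contact was −2.46 points (−3.99 to −0.592).

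The flanks gave a graded picture. In the first kb on both sides, 0.861% of bases lay under H3K27me3 around members and 5.12% around domains without a summit, and at 20 to 50 kb the shares were 2.60% and 3.96%. Around members the mark thus became more frequent with distance, and around domains without a summit it was most frequent near the peak. Among peaks of 1 kb and over the first kb held 0.444% and 1.27%, and 20 to 50 kb away 2.39% and 2.95%. Both groups thus showed a dip beside the peak, with the lower share around members. The flank shares have no intervals, and these peaks were not matched further for width or scaffold span.

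**Figure D5:**
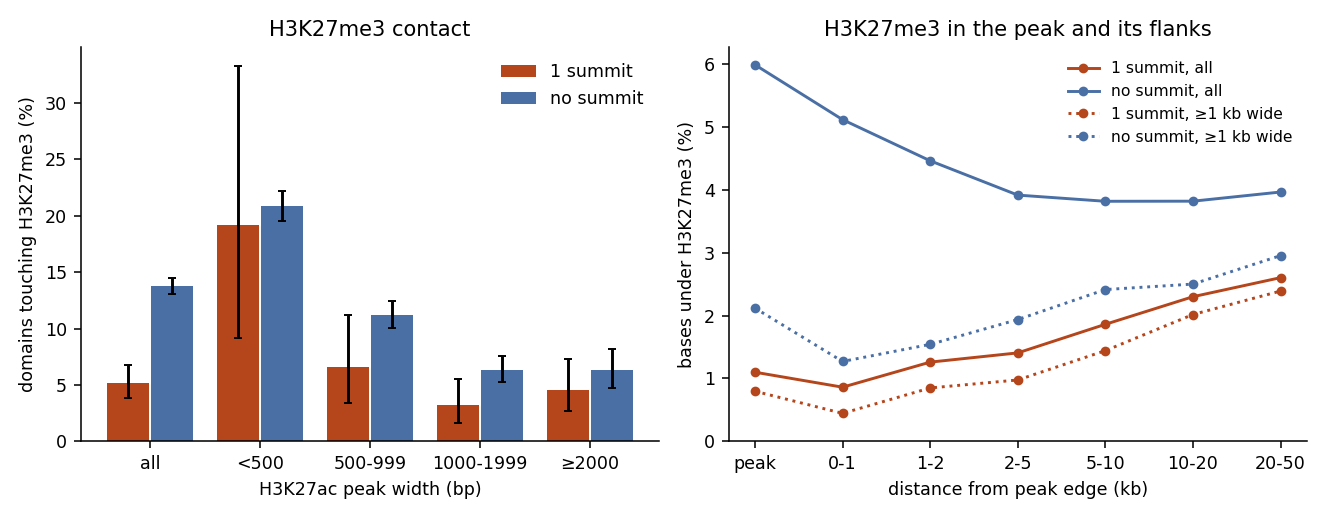
Left, share of single-peak domains touching H3K27me3 (%), with exact binomial 95% intervals, for all widths and 4 width classes. Right, share of bases under H3K27me3 (%) inside the peak and by distance from its edge (kb); dotted lines are peaks of 1 kb and over. The first kb beside members holds 0.861% and beside domains without a summit 5.12%.

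Where contact occurred, it covered a smaller share of members than of the narrower domains without a summit. The 49 members in contact had a median of 33.1% (21.2 to 39.1%) of their width under H3K27me3, against 96.8% (94.5 to 98.9%) in the 1256 domains without a summit, whose median width was 422 bp against 1135 bp. Coverage of at least 50% of the peak was found in 15 members (1.57%) and 1039 domains without a summit (11.4%). The share was 6.85% of all H3K27ac domains and 0.965% of multi-peak domains with 1 summit. For multi-peak domains this means at least 50% of the whole merged span, gaps included, so those values are not like-for-like. Of the 15 members, 9 were under 500 bp wide, where the interval was 9.15 to 33.3% for members and 18.8 to 21.3% for domains without a summit (759 of 3791). Such coverage was found in 0 of the 349 members of 2 kb and over (exact 95% interval up to 1.05%). In 30 of the 49 the H3K27me3 peaks lay wholly inside the acetylated peak. In 13 they reached over an edge and in 6 they covered all of it. This split was not made for the narrower domains without a summit, so it is a description and not a trait of members. The SOX10 summit itself lay under H3K27me3 in 24 of the 49, or 2.51% of all members. No like share is given here for SOX10 summits at large, so this one is not read as high or low. The H3K27ac fold of the 49 was not low, with a median of 7.08 (5.64 to 8.76) against 5.67 (5.45 to 5.84) in the other 906 members.

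The member with the most bases under H3K27me3 was at 1994 to 3386 of AKCR02000354.1, with 1392 of its 1393 bp covered and 77 SOX10 fragments over a background of 28.9. The next, at 8140185 to 8141531 of AKCR02000032.1, was 90.8% covered, had an H3K27ac fold of 10.1 and held its summit 16 bp from an edge. The other 3 of the first 5 were covered in part. At 8704358 to 8709982 of AKCR02000008.1 it was 15.0% and at 3707755 to 3711481 of AKCR02000004.1 20.2%, with H3K27ac folds of 11.8 and 10.6. At 69974 to 71933 of AKCR02000259.1 it was 38.2%.

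Scaffold span went with contact. On scaffolds under 1 Mb 17.6% (10.8 to 26.4%) of 102 members and 32.7% (30.3 to 35.2%) of 1485 domains without a summit touched H3K27me3. On those of at least 1 Mb the shares were 3.63% (2.48 to 5.12%) and 10.1% (9.39 to 10.8%). Members had the lower share in both span classes, without overlap of the intervals. These shares were not matched for width, and members were the wider in both classes. Their median widths were 1149 against 487 bp under 1 Mb and 1605 against 632 bp at 1 Mb and over.

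On either side of the 5 kb rule the values are given as a description, without intervals. The 85 members whose next domain was 5 to 6 kb away had a median width of 1962 bp, an H3K27ac fold of 5.94 and a SOX10 fold of 3.19, and 2 touched H3K27me3. Just outside the rule, 64 domains of 2 peaks with a gap of 4 to 5 kb held 1 summit, with a median SOX10 fold of 3.27. The 55 of these whose summit lay in a peak had there a median width of 2529 bp and a fold of 6.22, and 2 touched H3K27me3.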

How the data were processed

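Per the submitters' processing notes the tools were bcl2fastq 2.20, Bowtie2 2.2.9, SAMtools 1.16 and MACS3 3.0.0, with no order or settings. The authors deposited 1 peak list per target, narrow for SOX10 and broad for both histone marks. The fold, a ratio over local background, and the p-value and q-value, as −log10, are the authors' deposited values. The largest q in the SOX10, H3K27ac and H3K27me3 lists was 0.0462, 0.0968 and 0.0965. The labels do not state the control library, other settings or total reads. Cells were fixed with formaldehyde and chromatin was sheared to 300 to 500 bp and read as single ends of 75 nt, so positions are no finer than fragments.

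Python 3.11.15, pandas 2.3.3, numpy 2.4.6 and scipy 1.17.1 were used, and the code was tested on simulated intervals. Distances run from peak edges and stop at the scaffold end. Fragments were solved for all 6579 SOX10 peaks from fold = (fragments + 1) / (background + 1) and a Poisson tail p, where the added 1 is assumed as the caller's usual pseudocount, with a largest error of 0.000645 in −log10 p. Named regions are the 10 members of highest SOX10 fold, 5 widest, 3 narrowest, 5 most isolated with neighbours on both sides, 5 with most bases under H3K27me3 and 3 with the nearest further summit. Members and comparisons were chosen with earlier results of these data known. The annotation at hand belongs to another assembly, so no gene or sequence is given.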

Additional observations from a re-analysis of the deposited data

How the results depend on the processing

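Of 70 recalculations of 9 results under 12 other settings, 56 stayed within the first interval (for the count, within 1.5 times) and 14 moved. For ratios that interval is the wider, crosswise one. Both ratios that started at 1.00, with intervals spanning 1, crossed it in some settings: the distance to the next SOX10 summit at 0.959 (2 kb gap) and 0.986 (SOX10 peak overlap), and the SOX10 fold against multi-peak domains at 0.998 (H3K27ac −log10 q of at least 3), 0.9996 (2 kb gap) and 0.971 (fragments in place of fold). No other result changed direction. Weighting to width classes, peaks of 1 kb and over, and domains with a neighbour on both sides were chosen after seeing the data. With SOX10 −log10 q of at least 5 there were 574 members, and in the other settings 660 to 1373. The ratio of median widths, 2.60, became 2.10 with H3K27ac −log10 q of at least 3, where the fold ratio of 1.53 became 1.34; the fold ratio was 1.21 weighted to width classes and 1.23 for peaks of 1 kb and over. Summits in the central 50% fell to 69.1% when overlap of the SOX10 peak stood in place of the summit, since summits beyond the edge then enter. The ratio of distances to the next acetylated domain rose from 1.05 to 1.17 weighted to width classes. The difference in H3K27me3 contact, −8.61 points, became −6.02 with H3K27ac −log10 q of at least 3, −6.42 on scaffolds of at least 1 Mb, −6.33 with H3K27me3 −log10 q of at least 3, −2.84 weighted to width classes and −2.46 for peaks of 1 kb and over. That within 10 kb, −10.5 points, became −2.94 and −3.95 in the last pair of settings. The cause of these differences was not tested.

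No paired analysis was possible because a single library stands for each target, and for the same reason leaving out a replicate was not run. The SOX10 summit of fewest fragments had 14 among members and 13 in the whole list, and in the highest background class the fewest were 28 and 27.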

Other observations

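Single-peak domains with 2 or more summits were few but wide. The 77 such domains had a median width of 3606 bp (2534 to 4727 bp) and a median H3K27ac fold of 8.67 (7.45 to 10.6), above the 1564 bp and 5.69 of members. Their 167 summits lay a median of 793 bp (664 to 890 bp) from the next summit, and their SOX10 fold, 3.28 (3.17 to 3.43), was near the 3.31 of members. Of the 77, 6.49% had no other H3K27ac domain on the scaffold.

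In 57 cases a member was the next domain along the scaffold after another member. Members made up 5.42% of all H3K27ac domains. The nearest other domain was a member for 6.25% (4.77 to 8.02%) of members and 5.50% (5.03 to 6.01%) of domains without a summit, with overlapping intervals. In 48 of the 885 members with neighbours on both sides, no other H3K27ac domain, SOX10 summit or H3K27me3 peak lay within 50 kb. No like count is given here for domains without a summit, so the value is a description only.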
